A study of Mus musculus with 4 samples.

Results

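End joining is the reaction that seals broken DNA ends, and its factors were followed here in subclones of the mouse hybridoma 36-65, a cultured line that descends from a B cell fused to a myeloma cell and secretes one antibody. The members were 7 genes, taken by name, of the 18193 genes that the arrays named: Xrcc5, Xrcc6, Prkdc, Nhej1, Xrcc4 and Lig4 of the classical pathway, and Parp1, which acts in the alternative one. They were measured by 13 of the 45037 probe sets tested, 4 for Parp1, 2 each for Xrcc6, Xrcc4 and Nhej1, and 1 each for Xrcc5, Lig4 and Prkdc. The compared groups were 2 subclones labelled as switching isotype spontaneously at high frequency in culture (H23 and H27) and 2 labelled as switching at low frequency (L25 and L27). All were grown in the same medium with 10% fetal calf serum and no agent was named. Each subclone gave total RNA for 1 biotin-labelled Affymetrix array, so traits of a single subclone and of its switching class cannot be told apart, and the p-values speak only of the spread among 4 arrays. In bulk RNA, fewer cells expressing a gene and less RNA per cell cannot be told apart.

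Class switching replaces the constant region of an antibody heavy chain by cutting a pair of switch regions and joining the distant ends, so every successful switch ends in a joining step. In the classical pathway the Ku70 and Ku80 proteins, made from Xrcc6 and Xrcc5, clamp onto the ends and recruit the kinase DNA-PKcs, made from Prkdc. The ligase made from Lig4 then closes the break together with its partner XRCC4 and the related factor XLF, made from Nhej1. When this pathway is missing in B cells, switching is reduced but not lost, because an alternative pathway joins ends through short matching stretches. PARP1 senses breaks and is counted among the factors of that route.

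Array medians ran from 38.1 to 39.3 in intensity, and precision is limited by having only 4 arrays. Hybridization controls averaged 11.23 (log2) on H27 and 11.32 on L25, and 10.79 on H23 and 10.72 on L27, so their level crosses the classes. The 3′ minus 5′ difference of the actin controls was between 0.22 and 0.33. Of 11 B and plasma cell markers measured, 9 lay above the median probe set on all arrays, among them Jchain, which links secreted antibody units (14.43 and 14.49 in H23 and H27, 14.35 and 14.49 in L25 and L27). In that list 1 gene was called higher in high switching subclones, the B cell receptor gene Cd79b (11.79 and 11.85 in H23 and H27, 11.01 and 11.10 in L25 and L27, adjusted p = 0.0238), while its partner Cd79a read between 5.04 and 5.25. The plasma cell genes Xbp1 (-0.71, adjusted p = 0.0461) and Tnfrsf17 (-0.71, adjusted p = 0.0454) were called lower. Other plasma cell genes of the list did not pass and differed in direction. Prdm1 differed by 0.74 (limma adjusted p = 0.119), Mzb1 by -0.38 (adjusted p = 0.295), and Sdc1, Jchain and Irf4 by 0.11, 0.04 and 0.03. Of 7 T cell, 8 myeloid and 7 fibroblast markers measured, 0, 1 (Itgam, lower) and 1 (Lum, higher) passed the test below. Over all genes 4.82% passed it. The mean levels of these lists were between 4.64 and 5.65 (log2), and 5, 3 and 2 of their genes lay above the median probe set on all arrays. Itgam read 6.55 and 6.97 in H23 and H27, against 8.14 and 8.14 in L25 and L27, and the T cell gene Cd3g read between 6.92 and 7.79.

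The start regions of 3 members are shown because Lig4 had the largest positive difference and Xrcc4 and Xrcc6 the largest negative ones. Each sequence is the 250 bases before an annotated start, from RefSeq on build GRCm38.p6, written 5′ to 3′ along the gene, and capitals mark matches to GGGCGG on either strand, the core of the GC box that the factor Sp1 binds. The windows are chr8:9977681-9977930 (minus strand, Lig4), chr13:90089609-90089858 (minus strand, Xrcc4) and chr15:82016119-82016368 (plus strand, Xrcc6), the last inside the annotated span of Xrcc6, whose outermost start lies further upstream.
Lig4: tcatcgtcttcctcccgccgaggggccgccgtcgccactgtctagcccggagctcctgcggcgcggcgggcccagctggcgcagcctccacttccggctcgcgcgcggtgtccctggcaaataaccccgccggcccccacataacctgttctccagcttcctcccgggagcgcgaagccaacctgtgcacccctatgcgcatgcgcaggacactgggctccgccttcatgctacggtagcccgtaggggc
Xrcc4: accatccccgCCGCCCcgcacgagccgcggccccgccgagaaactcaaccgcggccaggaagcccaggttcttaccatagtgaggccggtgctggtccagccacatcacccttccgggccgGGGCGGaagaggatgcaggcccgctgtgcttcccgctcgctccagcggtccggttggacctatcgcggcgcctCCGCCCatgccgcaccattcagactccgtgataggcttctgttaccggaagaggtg
Xrcc6: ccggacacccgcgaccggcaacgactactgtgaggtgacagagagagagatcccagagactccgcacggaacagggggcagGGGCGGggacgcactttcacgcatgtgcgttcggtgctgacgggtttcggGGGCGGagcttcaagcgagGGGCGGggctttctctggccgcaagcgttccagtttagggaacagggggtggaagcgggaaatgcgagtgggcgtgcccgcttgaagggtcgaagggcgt
A GC box was found in 5 of the 7 windows of 6 members, at 3 places each for Xrcc6, Xrcc4 and Parp1 and at 2 for Nhej1 and for the second annotated start of Lig4. It was not found in the Lig4 window shown. Of 32851 mouse windows of this length, 32.7% held it. The TATA box (TATAAA) was in 0 of the 7 windows and in 12.4% of all windows, the CCAAT box (CCAAT) in 1, that of Xrcc5, against 33.8%, and the E box (CACGTG, the same on both strands) in 2, those of Xrcc5 and Parp1, against 6.02%. The windows of Lig4, Xrcc4 and Xrcc6 had GC contents of 70.0%, 68.0% and 65.2%, against a median of 52.4% over all windows and 44.8% for Xrcc5. Prkdc is named only.

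Setting high against low switching subclones asks whether transcripts of the joining machinery differ between the classes. None of the 13 end joining probe sets passed limma's test (adjusted p under 0.05 over all probe sets), and the adjusted p-values ran from 0.099 for Lig4 to 0.956 for 1 Parp1 probe set. Over all probe sets 3.59% passed, 1.5% as higher and 2.1% as lower. At an unadjusted p under 0.05 there were 3 of 13, namely Lig4 as higher and Xrcc6 and Xrcc4 as lower, which is 23.1% against 18.6% of all probe sets. The largest of the 13 differences was 0.42 on the log2 scale, and all 13 intervals (95%) lay within 2-fold in either direction, between -0.66 and 0.67. Of these intervals, 11 also lay within 1.5-fold. Permuting 4 arrays in groups of 2 yields an exact two-sided p of at least 0.333, and limma reaches smaller values by pooling variance over probe sets.

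**Figure D1:**
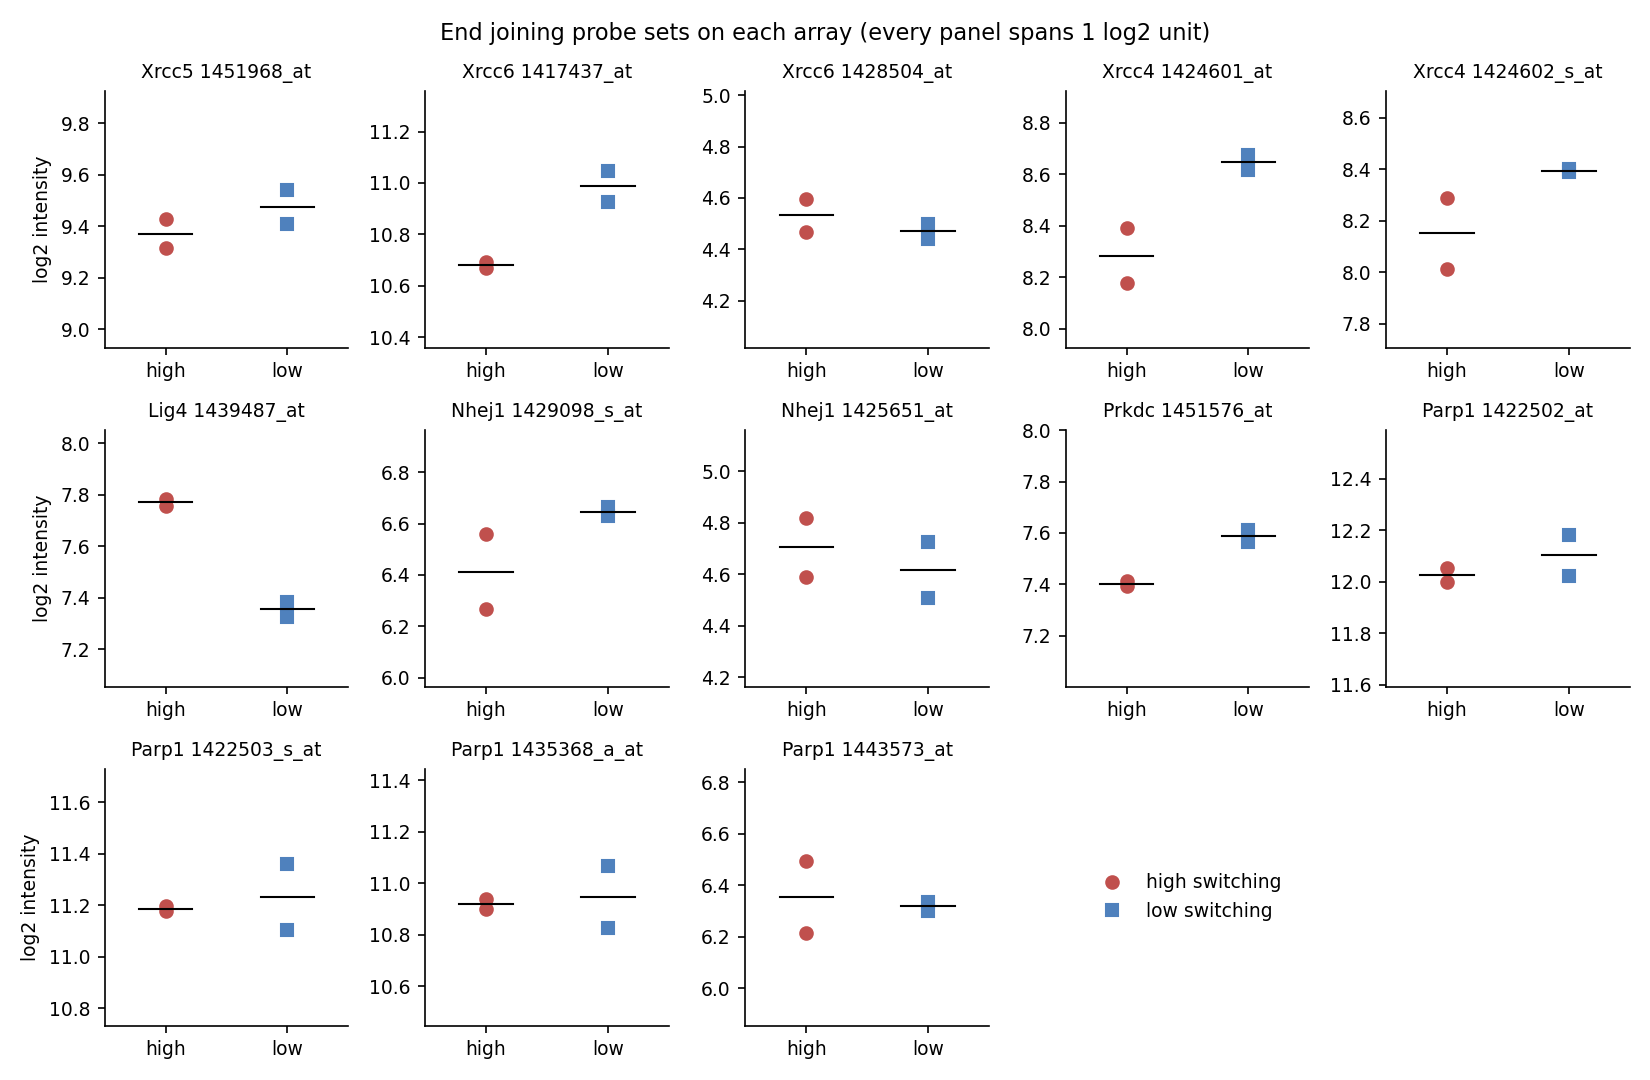
Log2 intensity (vertical axis, 1 unit in every panel) of the 13 end joining probe sets in the high switching subclones H23 and H27 (red circles) and the low switching subclones L25 and L27 (blue squares); black lines are group means. Lig4 stands higher in both high switching subclones, Xrcc6 (1417437_at), both Xrcc4 probe sets, Nhej1 (1429098_s_at) and Prkdc stand lower, and in the other panels the groups overlap.

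Lig4 encodes the ligase that closes the break in the classical pathway. Its probe set 1439487_at read 7.78 and 7.76 (log2) in H23 and H27, against 7.32 and 7.38 in L25 and L27. The groups did not overlap, and the subclones of a class lay within 0.06 of each other. Lig4 was 1.33-fold higher in high switching subclones, with an interval from 1.12 to 1.59-fold, a log2 difference of 0.42 ± 0.10 (SE, n = 2 each) and a limma adjusted p of 0.099. It lies on chromosome 8, where 424 genes averaged at least 7 (log2) and shared a median difference of 0.24, and its 35 nearest such genes had a median of 0.29. With the median of these neighbours subtracted on each array, the difference of Lig4 was 0.17 (adjusted p = 0.405). The part of the neighbourhood in the Lig4 value was not tested.

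XRCC4, the scaffold that holds and stabilizes that ligase, had 2 probe sets. On 1424601_at the values were 8.39 and 8.18 in H23 and H27, against 8.68 and 8.62 in L25 and L27. On 1424602_s_at they were 8.29 and 8.01 in H23 and H27, against 8.40 and 8.39 in L25 and L27. Both probe sets were lower in both high switching subclones, lowest in H27, and on the second the gap of 0.27 between H23 and H27 exceeded the difference between the classes. The log2 differences were -0.36 ± 0.12 (adjusted p = 0.184) and -0.24 ± 0.13 (adjusted p = 0.397), the first a 1.29-fold lower level with an interval from 1.05 to 1.58-fold. The Lig4 signal relative to that of Xrcc4 (1424601_at) on the same array was higher in both high switching subclones, by 0.78 on the log2 scale. This pair was chosen after the values were seen, as the members with the largest positive and the largest negative difference, so its separation follows from the choice. An exact permutation test on 4 arrays cannot reach a two-sided p under 0.333 and could not decide the matter.

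Nhej1 encodes XLF, which resembles XRCC4 and bridges the ends with it. Its brighter probe set 1429098_s_at read 6.56 and 6.27 in H23 and H27, against 6.63 and 6.66 in L25 and L27. Both high switching values were lower, but H23 and H27 differed by 0.29, more than the classes did (-0.23 ± 0.13, adjusted p = 0.435). The other, 1425651_at, lay under the array median on all 4 arrays, where the signal may say little about the transcript, and gave a difference of 0.09 ± 0.14 (adjusted p = 0.820), so the direction for Nhej1 is not settled.

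Both Ku subunits had differences of unequal size, and neither passed. Xrcc6 (Ku70) read 10.69 and 10.67 in H23 and H27, against 10.93 and 11.05 in L25 and L27, on probe set 1417437_at. The groups did not overlap, and the level was 1.24-fold lower in high switching subclones with an interval from 1.03 to 1.49-fold (log2 difference -0.31 ± 0.11, adjusted p = 0.207). Its second probe set, 1428504_at, stayed below the median probe set on every array and differed by 0.06 ± 0.11. Xrcc5 (Ku80), on probe set 1451968_at, read 9.43 and 9.31 in H23 and H27, against 9.54 and 9.41 in L25 and L27. These groups overlapped, and the difference of -0.10 ± 0.11 (adjusted p = 0.728) was smaller than the gap between the subclones of either class.

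Prkdc encodes DNA-PKcs, the kinase that Ku brings to the ends. Its probe set 1451576_at read 7.41 and 7.39 in H23 and H27, against 7.61 and 7.56 in L25 and L27. The groups did not overlap, and the difference was -0.18 ± 0.10 (adjusted p = 0.430), with an interval from -0.44 to 0.07. Genes of chromosome 16, where Prkdc lies, had a median of -0.27, and its 40 nearest genes a median of -0.20.

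Parp1 had 4 probe sets, and in each of them the groups overlapped. The brightest, 1422502_at, read 12.05 and 12.00 in H23 and H27, against 12.02 and 12.18 in L25 and L27. L27 was the highest array on this and on the next probe sets, 1422503_s_at and 1435368_a_at. The 4 differences were -0.08 ± 0.11, -0.04 ± 0.13, -0.03 ± 0.12 and 0.03 ± 0.13, with adjusted p-values from 0.818 to 0.956. The interval of the first ran from -0.35 to 0.20, so a change of Parp1 by more than 1.28-fold lower or 1.15-fold higher lay outside it.

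**Figure D2:**
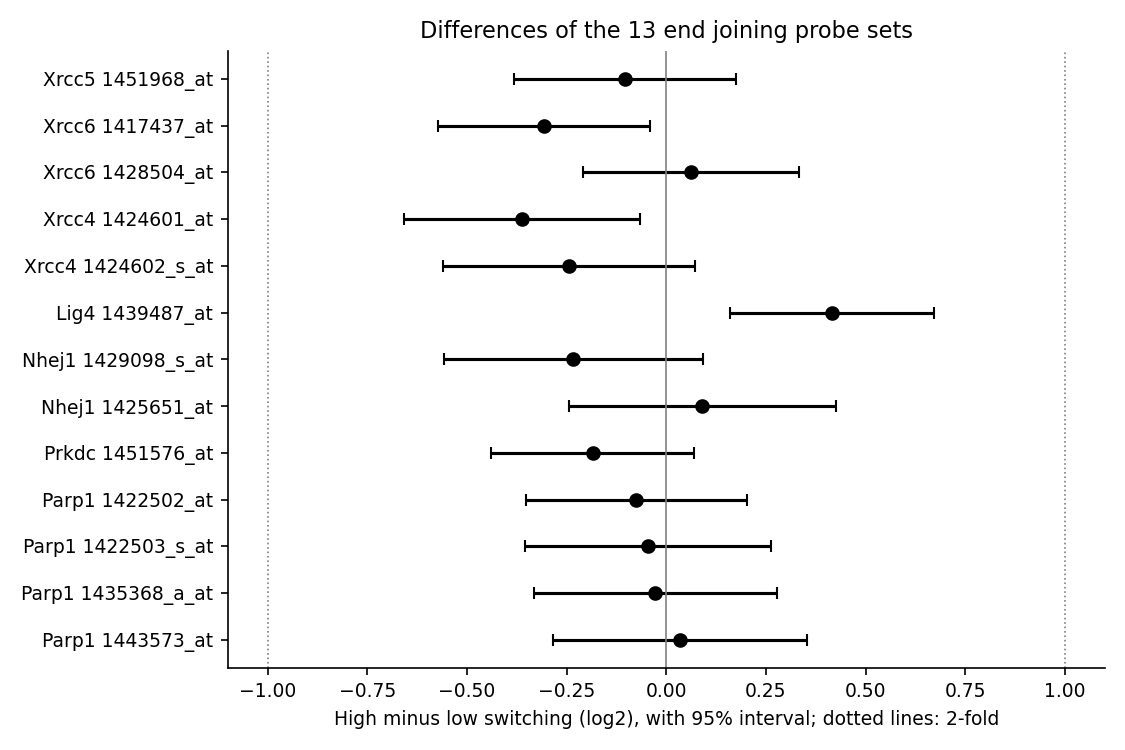
Log2 difference of high minus low switching (horizontal axis) for each end joining probe set, with 95% limma intervals. The differences run from -0.36 for Xrcc4 to 0.42 for Lig4, and every interval stays inside the dotted lines at 2-fold.

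Across the members, 6 of 13 probe sets had groups that did not overlap, 1 with both high switching subclones above and 5 with both below. That is 46.2%, against 47.3% of all probe sets (25.1% above and 22.2% below). With 1 probe set for each gene (the one with the highest mean), the median difference of the 7 members was -0.18, against 0.0077 over all 18193 genes and -0.05 over the 8222 genes averaging at least 7 (log2). For 4 of the 7 (57.1%), namely Lig4, Xrcc4, Xrcc6 and Prkdc, the difference exceeded that between the subclones of either class, which held for 53% of those 8222 genes and for 40% of all genes. All 7 members read lower in H27 than in H23, against 4627 of the 8222 genes, and 3 of 7 read lower in L27 than in L25, against 3834. Nhej1, averaging 6.53, is under that cut and not among the 8222. Over all 18193 genes, 9605 read lower in H27 than in H23 and 9178 lower in L27 than in L25.

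The 7 genes lie on 5 chromosomes, with Xrcc5, Nhej1 and Parp1 on chromosome 1. The median difference of the 40 nearest genes was -0.20 for Xrcc5, -0.18 for Nhej1, -0.17 for Xrcc4 and 0.0097 for Parp1. The neighbours of Xrcc5 and Nhej1 overlapped, with the same lowest difference of -3.49, so those medians are not independent of each other. For Xrcc6 the neighbours went the other way, with a median of 0.09. With the neighbours' median subtracted on each array, the difference of Xrcc6 was -0.43 (adjusted p = 0.087), the largest of the 7 in that setting. Those of Xrcc5 and Prkdc then changed sign, to 0.08 and 0.04.

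**Figure D3:**
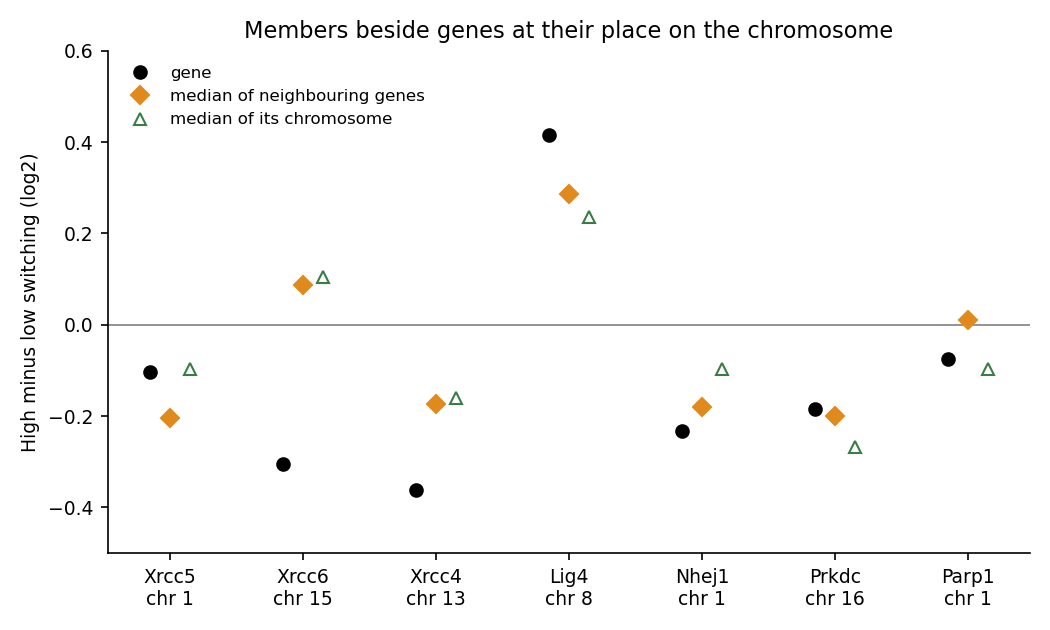
Log2 difference of high minus low switching for each member (black circles), the median of its nearest genes on the chromosome (orange diamonds, 20 on each side and 35 in all for Lig4) and the median of its chromosome (open green triangles). Lig4, Xrcc4, Nhej1, Prkdc and Xrcc5 lie on the same side of 0 as their neighbours, and Xrcc6 and Parp1 do not.

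Accessory factors of the classical pathway, which trim, fill or clear the ends, were taken as a list of 12, of which 9 were measured with 1 gene symbol. Tdp1, which clears topoisomerase remnants from DNA ends, was called higher in high switching subclones, and 0 of the 9 were called lower. Over all genes 4.82% were called (2.04% higher and 2.78% lower). Of the 9, 8 lay above the median probe set on all arrays. Brighter probe sets were called more often, 8.01% of those with a mean above the median when only those were tested. Whether called or not, 5 of the 9 differences were positive and 4 negative. The largest negative one was that of Aptx (-0.47 ± 0.13, limma adjusted p = 0.134), which was named after its value was seen. Tdp1 (1426492_at) read 9.75 and 9.53 in H23 and H27, against 8.90 and 9.02 in L25 and L27. The groups did not overlap, and the difference was 0.68 ± 0.13 (1.60-fold, adjusted p = 0.0464). The call ended in 8 of 15 alternative settings: without any 1 array (differences from 0.57 to 0.79), with the neighbours' median subtracted (0.40, adjusted p = 0.107), with the hybridization control level as a block (adjusted p = 0.105), with a variance trend (0.0504) and with an offset of 16 before log2 (0.0536). Aplf, a scaffold that helps hold the ligase complex at breaks, read 8.29 and 8.06 in H23 and H27, against 7.56 and 7.69 in L25 and L27. That difference of 0.56 ± 0.13 did not pass (adjusted p = 0.081), and a dim second probe set gave -0.07. The median of the 9 was 0.04.

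Of 14 genes of alternative joining and end resection, 13 were measured, with a median difference of -0.09. Of these, 1 was called higher and 2 lower, against 2.04% and 2.78% of all genes. All 13 lay above the median probe set on all arrays. Of probe sets with a mean above the median, 8.01% were called in either direction when only those were tested. Nbn, the damage-signalling subunit of the MRE11 complex that opens ends for resection, read 7.32 and 7.33 in H23 and H27, against 8.34 and 8.21 in L25 and L27. Nbn was lower in both high switching subclones by 0.95 ± 0.11 (adjusted p = 0.0151). The other subunits of that complex did not pass. Mre11a had a difference of 0.35 ± 0.10 (adjusted p = 0.145) and Rad50 one of -0.19 ± 0.17 (adjusted p = 0.645). A second Mre11a probe set, 1441990_at, lay above the median probe set on all arrays and gave -0.04 ± 0.11. A dim second probe set of Rad50 gave 0.05.

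Xrcc1, the scaffold of the ligase III complex, fell. It read 8.82 and 8.91 in H23 and H27, against 9.59 and 9.49 in L25 and L27, a difference of -0.67 ± 0.11 (adjusted p = 0.0352). Lig3, which encodes its partner ligase, differed by -0.41 ± 0.16 and did not pass (adjusted p = 0.238). Hmces, a guard of damaged sites in single-stranded DNA with a described role in alternative joining during switching, rose. It read 11.20 and 10.87 in H23 and H27, against 9.98 and 9.81 in L25 and L27, a 2.20-fold higher level (log2 difference 1.14 ± 0.15, adjusted p = 0.0195). The calls of Nbn and Xrcc1 ended when any 1 array was left out, with differences from -1.02 to -0.88 and from -0.72 to -0.62. That of Hmces ended without H23, L25 or L27 and held without H27, with differences from 0.98 to 1.30. In these fits 1 class has a single array, assumed to vary like the other class. All 3 calls also ended with the hybridization control level as a block, and that of Xrcc1 with the neighbours' median subtracted (-0.58, adjusted p = 0.051). Polq, whose polymerase drives joining at short matches, differed by 0.0059 ± 0.11 (adjusted p = 0.994). Its probe set was dim, at 5.93 and 5.80 in H23 and H27, against 5.81 and 5.90 in L25 and L27. Array medians were 5.25 to 5.30 (log2), so this signal may say little about the transcript. Mre11a, Rad50, Lig3 and Polq were named after their values were seen.

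**Figure D4:**
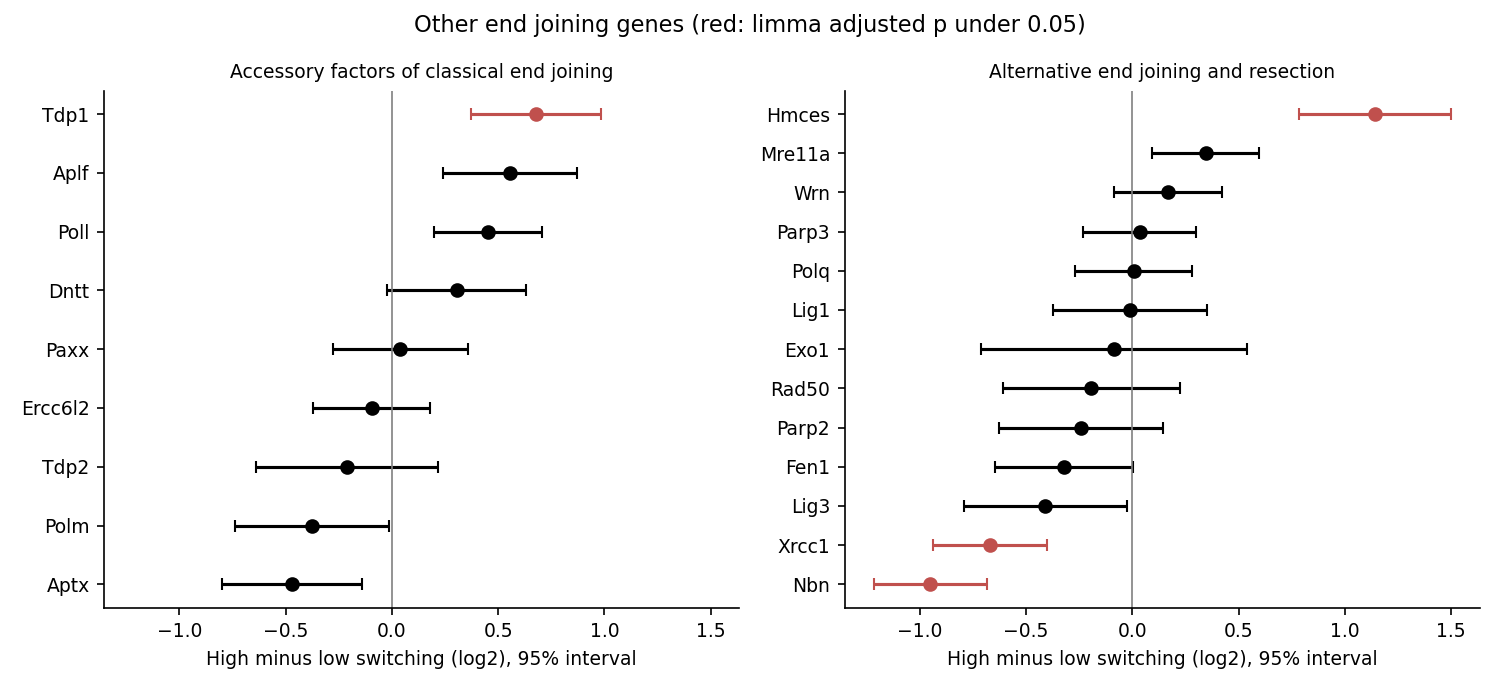
Log2 difference of high minus low switching with 95% limma intervals for 9 accessory factors of classical end joining (left) and 13 genes of alternative joining and resection (right). Tdp1 and Hmces (higher) and Xrcc1 and Nbn (lower), in red, are the 4 of 22 genes with an adjusted p under 0.05.

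Of 14 proliferation genes listed, 13 were measured and 0 passed limma's adjusted test, 5 had an unadjusted p under 0.05 (22.9% of all genes did), and 10 had a negative difference, with a median of -0.27. The largest were those of the replicative helicase subunit Mcm7 (-0.56 ± 0.15, adjusted p = 0.108) and the sliding clamp Pcna (-0.49 ± 0.15, adjusted p = 0.159). The mean level of the list was 11.53 in H23 and 11.22 in H27, against 11.59 in L25 and 11.63 in L27, and 12 of 13 genes read lower in H27 than in H23. The part of this difference in the members' values was not tested.

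For likeness of pattern, genes averaging at least 7 (log2) were ranked by the Euclidean distance between mean-centred log2 values on the 4 arrays. Nearest to Lig4, the member with the smallest p, were Sugt1, Tpm3 and Trim35 at distances of 0.033, 0.033 and 0.034, and 632 of 8221 genes lay within 0.2. Nearest to Parp1 were Taf4b, Atp6v0b and Pkm at 0.013, 0.022 and 0.029, with 1430 genes within 0.2.

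**Figure D5:**
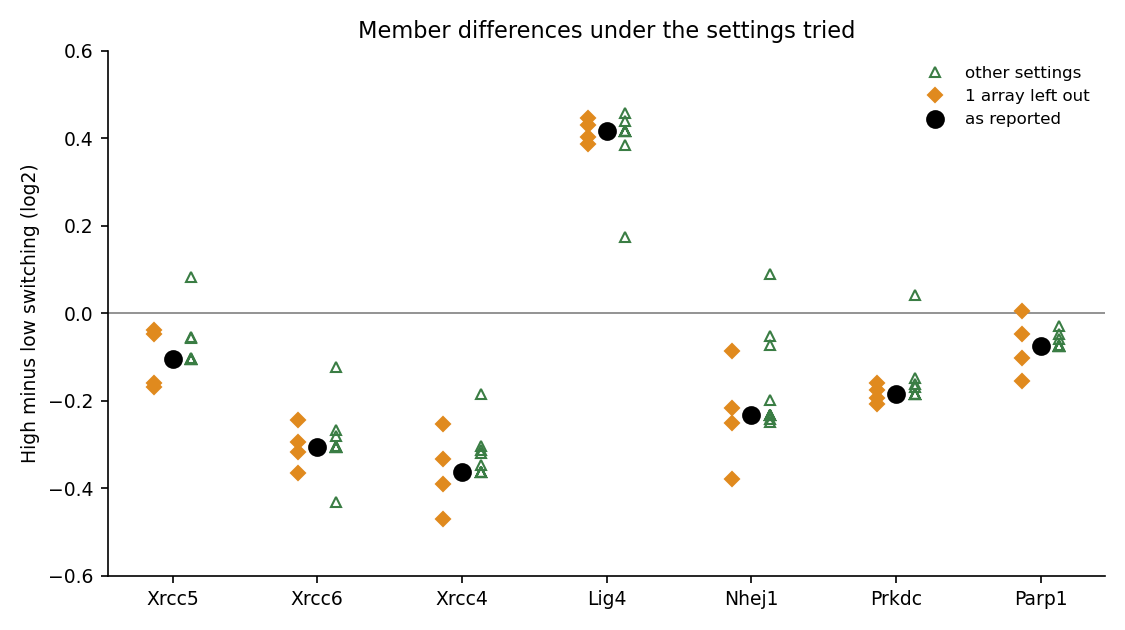
Log2 difference of high minus low switching for each member (probe set with the highest mean) as reported (black), with 1 array left out (orange diamonds) and under the other settings (green triangles). Lig4 stays above 0 (0.17 to 0.46) and Xrcc6 and Xrcc4 below it, while Xrcc5, Nhej1, Prkdc and Parp1 each cross 0 in 1 setting.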

How the data were processed

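Biotin-labelled total RNA was hybridized to 1 Affymetrix array for each subclone, per the labels. The authors deposited linear intensities, 1 for each probe set, made with RMA (background correction, normalization between arrays and probe summary) per the submitters' processing notes. Its version and any build are not stated there. RMA shrinks differences of dim probe sets. Intensities were turned to log2.

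Of 45101 rows, 64 controls were left out. The platform annotation of the arrays gave 1 symbol for 34945 probe sets, several for 932 and none for 9160. High minus low switching was tested with limma 3.58.1 (R 4.3.3; lmFit and eBayes, two-sided), adjusted by Benjamini-Hochberg over 45037 probe sets, with a threshold of 0.05, no filter and 95% intervals. The fit was tested on simulated data. Lists used 1 probe set for each gene. Named were all members and, from the accessory, alternative and proliferation lists, genes past the threshold (up to 6 a list) and the 2 with the largest absolute difference in each. Cell type markers were named after their values were seen. Some listed genes had no matching probe set or are not reported here. The members, lists and tests were chosen with earlier results of these data known. Replicates 1 and 2 are H23 and H27, and L25 and L27. Alternatives, 15 in all, were other variance models, filters, normalizations, an offset, other uses of probe sets, each array left out, a block for the hybridization control level and subtraction of neighbouring genes (20 on each side, mean of at least 7). Figures used matplotlib 3.10.9.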

Additional observations from a re-analysis of the deposited data

How the results depend on the processing

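None of the end joining probe sets passed the adjusted threshold under any of the 15 alternatives, and 101 of the 105 values of the 7 members kept their direction. The exceptions were Xrcc5 (0.0836) and Prkdc (0.0419) with the neighbours' median subtracted, Nhej1 (0.0900) without _x_at, _s_at and _a_at probe sets, which leaves only its dim probe set, and Parp1, which ranged from -0.155 to 0.0048 with 1 array left out and was positive only without low switching replicate 2 (L27). Aplf was -0.0660 without those probe sets. Many of the 105 values could not change direction. Other variance models, filters on level and the block leave a difference as it was. Leaving out 1 array cannot reverse a difference between groups that do not overlap. The lowest adjusted p of a member under any alternative was 0.0588, for Lig4 with an offset of 16 before log2. The 4 calls among the other end joining genes became 0 to 1 when 1 array was left out, 0 with the hybridization control level as a block and 2 with the neighbours' median subtracted. Over all probe sets 1618 were called, 308 to 582 with 1 array left out, 152 with that block, and 1068 of 18193 genes when the probe sets of each were averaged. Fewer arrays enter when 1 is left out, fewer degrees of freedom with the block, and fewer features when probe sets are averaged. For neighbour subtraction the cause was not tested. No paired analysis was possible because the replicate numbers follow the order of deposition and pair no subclones.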

Other observations

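Some end joining genes outside the members had differences of like or opposite sign, and they were picked after their values were seen. Lig3, the ligase of the alternative pathway, had 4 probe sets well above the median probe set. In each of them both high switching subclones read lower than both low switching subclones, which held for 22.2% of all probe sets. These 4 probe sets measure the same gene in the same RNA, so they are not independent of each other. On 1425865_a_at the values were 8.31 and 7.89 in H23 and H27, against 8.62 and 8.49 in L25 and L27. The 4 log2 differences were -0.41, -0.45, -0.35 and -0.25, with limma adjusted p-values from 0.207 to 0.288, so none passed, and the fifth, dim probe set gave -0.02. The gap-filling polymerases Poll and Polm had differences of opposite sign. Poll read 7.83 and 7.77 in H23 and H27, against 7.33 and 7.37 in L25 and L27 (0.45 ± 0.10, SE, adjusted p = 0.081). Polm read 7.71 and 7.38 in H23 and H27, against 8.01 and 7.83 in L25 and L27 (-0.38 ± 0.15, adjusted p = 0.251). Neither passed, and the difference between them was not tested.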
